A study of Homo sapiens with 12 samples.

Results

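Aminoacyl tRNA synthetases are the enzymes that join each amino acid to its tRNA, and the data here are the mRNA levels of 35 of their genes in MDA-MB-231 cells depleted of YAP and TAZ. The genes were taken by name, with older symbols such as AARS and QARS included: 19 encode enzymes of the cytosol and 16 encode enzymes of the mitochondrion. For each gene the probe set with the highest mean over the 12 arrays was used. An unambiguous probe set, annotated to 1 gene, was found for 32 of the 35 genes, 17 cytosolic and 15 mitochondrial, and all 32 passed the filter on low values, among 13225 genes tested of 19775 with a probe set. MARS1, QARS1 and TARS2 were not analysed here, because their probe sets also carry the name of a microRNA gene.

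MDA-MB-231 is an established human breast cancer cell line of the triple-negative type, and all 12 arrays come from it. Each culture was given one of 3 treatments: siRNA mix 1, which targets YAP1 (YAP) together with WWTR1 (TAZ), siRNA mix 2, aimed at the same pair, or a control siRNA, with 4 biological replicates lettered A to D in each group. All groups were seeded sparsely on day 1, transfected at 33 nM on day 2 with a lipid reagent, given fresh medium on day 3 and lysed for total RNA on day 4. Glutamine, glucose and serum were supplied at the same levels in all 3 groups. Each mix lowers both proteins' mRNAs in a single line, so effects of YAP and of TAZ cannot be told apart. Levels are log2 values from Affymetrix expression arrays, and a log2 difference of 1 is a doubling. The level of one probe set cannot be set against that of another, so genes are compared here by their differences between groups.

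Cells use a nuclear-encoded set of synthetases for protein synthesis in the cytosol and a largely separate set, also nuclear-encoded, for the few proteins made inside mitochondria. Glycyl and lysyl tRNA synthetases are exceptions, since GARS1 and KARS1 each give rise to both forms. Several cytosolic enzymes are held in a multisynthetase complex, and others act as free enzymes. Many genes of the cytosolic set are known targets of ATF4, the transcription factor of the amino acid response, and MYC is known to promote genes of protein synthesis.

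Both mixes lowered their targets. YAP1 was at 12.4% of control with mix 1 and 11.9% with mix 2, and WWTR1 at 19.8% and 18.3%. The standard YAP/TAZ target genes ANKRD1, CCN2 and CCN1 fell, with log2 differences of -5.44, -4.04 and -3.71 with mix 1, and -2.93, -2.28 and -1.55 with mix 2. MYC fell as well, at -1.27 and -0.94. Array medians lay between 5.69 and 5.78 log2. The difference between the 3 prime and 5 prime probe sets of actin, a measure of RNA integrity, ran from 1.61 to 2.24 with mix 1, 1.36 to 1.83 with mix 2 and 1.38 to 1.99 with control siRNA. Of the 6 mesenchymal-type markers of the line, 5 passed the filter and SPARC lay below its value of 5.46 in every group. With mix 1, 4 of the 5 were lower and 1 higher, and with mix 2, 2 were lower and none higher: AXL was at -1.11 and -0.41, CD44 at -0.26 and -0.29, MSN at -0.38 and 0.08, CAV1 at -0.31 and -0.15, and vimentin (VIM) at 0.12 and 0.08. Of the 10 luminal markers, CDH1, PGR and FOXA1 lay below the filter value. Of the 7 tested, 2 were higher and 2 lower with mix 1, and 4 were higher and none lower with mix 2. KRT19 was at 1.35 and 0.84, KRT8 at 0.51 and 0.40, EPCAM at -0.38 and 0.93 and GATA3 at -0.47 and 0.07. ERBB2 was at -0.01 and 0.20, KRT18 at 0.10 and 0.02 and ESR1 at -0.05 and -0.13. Among all genes tested, 34.8% were higher and 32.3% lower with mix 1, and 36.7% and 31.9% with mix 2.

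Most synthetase mRNAs fell after depletion of YAP and TAZ, in both compartments. With mix 1, 26 of 32 members were lower and 1 was higher at an adjusted p below 0.05 (limma, adjusted over all 13225 genes), while 32.3% of all genes tested were called lower and 34.8% higher (67.1% in either direction). With mix 2, 20 were lower and 7 higher, against 31.9% and 36.7% of all genes (68.6% in either direction). The share of members called lower was 81.2% with mix 1 and 62.5% with mix 2. The median log2 difference of the members was -0.43 with mix 1 and -0.28 with mix 2, against 0.01 and 0.03 for all genes tested. Falls of at least 2-fold were seen in 6 members with mix 1 and 7 with mix 2, against 8.28% and 9.35% of all genes, and no member rose 2-fold under either mix, against 8.09% and 9.06%. Both mixes were set against the same 4 control arrays. The arrays measure RNA of the whole culture, so a change in all cells and a change in the make-up of the culture cannot be told apart.

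**Figure D1:**
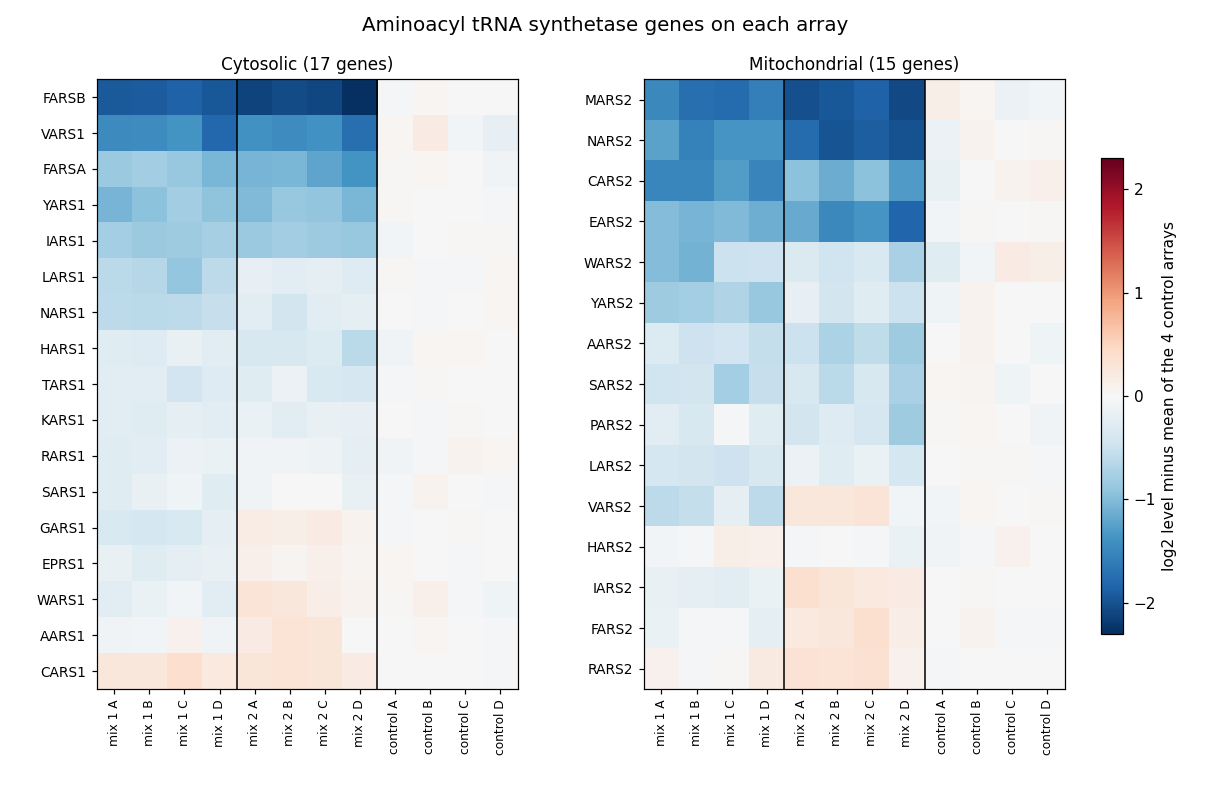
Each square is the log2 level of 1 gene on 1 array minus the mean of the 4 control arrays, for 17 cytosolic (left) and 15 mitochondrial (right) synthetase genes, with mix 1, mix 2 and control arrays from left to right and genes sorted by the sum of their differences. The deepest blue rows are FARSB and VARS1 on the left and MARS2, NARS2, CARS2 and EARS2 on the right, and AARS1, CARS1, IARS2, FARS2 and RARS2 at the foot of the panels are pale red on most mix 2 arrays.

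Of the 17 cytosolic genes, 15 were lower and 1 higher with mix 1, and 10 were lower and 4 higher with mix 2. Of the 15 mitochondrial genes, 11 were lower and none higher with mix 1, and 10 were lower and 3 higher with mix 2. The median log2 difference of the cytosolic genes was -0.31 with mix 1 and -0.24 with mix 2. For the mitochondrial genes it was -0.50 and -0.47. Array by array, the cytosolic median lay 0.27 to 0.35 below the control mean with mix 1 and 0.19 to 0.24 below it with mix 2. The mitochondrial median lay 0.47 to 0.53 below it with mix 1. With mix 2 the mitochondrial median was -0.33, -0.42, -0.34 and -0.75 on arrays A to D, so array D lay apart, and without it the median difference was -0.37. The actin 3 prime to 5 prime difference of that array was 1.83, against 1.36 to 1.57 on the other mix 2 arrays; its part in the result was not tested. No test was made between the compartments, whose ranges overlap widely.

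**Figure D2:**
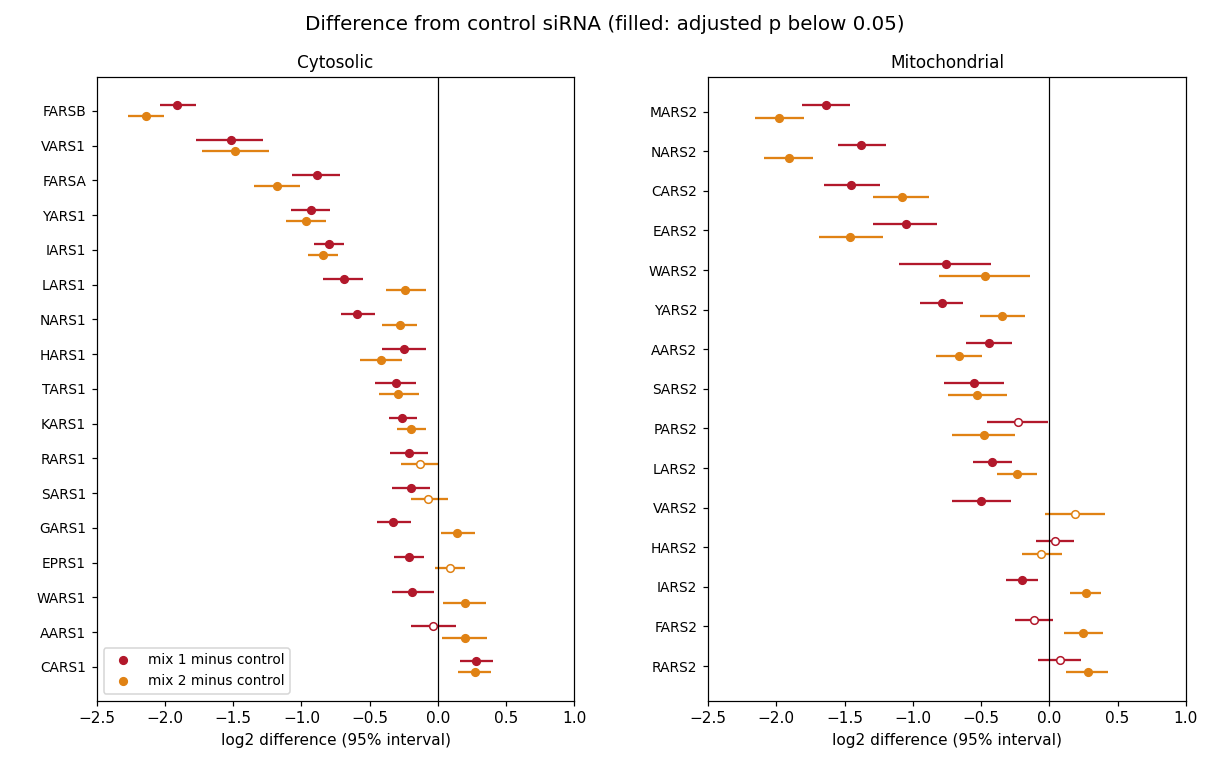
Log2 difference from control siRNA with its 95% interval for each synthetase gene, mix 1 in red and mix 2 in orange, filled where the adjusted p was below 0.05 (n = 4 arrays per group). Differences run from -2.14 to 0.28 among cytosolic genes (left) and from -1.98 to 0.28 among mitochondrial genes (right).

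The deepest cytosolic falls were in phenylalanyl, valyl, tyrosyl and isoleucyl tRNA synthetase. FARSB, which encodes the beta subunit of the cytosolic phenylalanyl enzyme, read 8.92, 8.94, 8.99 and 8.90 with mix 1, 8.72, 8.79, 8.76 and 8.55 with mix 2 and 10.81, 10.89, 10.85 and 10.83 with control siRNA. All 8 knockdown arrays lay well below all 4 control arrays. The log2 difference was -1.91 (SE 0.059, adjusted p = 1.84e-12) with mix 1 and -2.14 (SE 0.059, adjusted p = 4.22e-13) with mix 2, which left 26.7% and 22.7% of the control level. FARSA, the alpha subunit of the same enzyme, read 8.87, 8.91, 8.85 and 8.67 with mix 1, 8.64, 8.66, 8.51 and 8.34 with mix 2 and 9.75, 9.76, 9.72 and 9.64 with control siRNA. It fell to 53.9% of control with mix 1 (log2 SE 0.077, adjusted p = 8.32e-08) and 44.1% with mix 2 (log2 SE 0.077, adjusted p = 3.32e-09), and the groups did not overlap. Both subunits were lower with mix 2 than with mix 1, with differences of -0.23 for FARSB (adjusted p = 0.00393) and -0.29 for FARSA (adjusted p = 0.00543).

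VARS1 encodes valyl tRNA synthetase. Its levels were 8.10, 8.13, 8.19 and 7.76 with mix 1, 8.18, 8.12, 8.18 and 7.84 with mix 2 and 9.62, 9.76, 9.51 and 9.38 with control siRNA. Array D was the lowest of its group in all 3 groups, yet every knockdown array lay more than 1 log2 unit below every control array. The differences were -1.52 (SE 0.11, adjusted p = 1.03e-08) with mix 1 and -1.49 (SE 0.11, adjusted p = 1.19e-08) with mix 2. YARS1, the tyrosyl enzyme, read 10.47, 10.60, 10.73 and 10.61 with mix 1, 10.52, 10.66, 10.62 and 10.48 with mix 2 and 11.56, 11.53, 11.55 and 11.50 with control siRNA. This is close to a halving under either mix, with 52.4% and 51.2% of control left (adjusted p = 6.18e-09 and 3.79e-09). IARS1, the isoleucyl enzyme and a member of the multisynthetase complex, read 12.14, 12.07, 12.09 and 12.16 with mix 1, 12.07, 12.11, 12.08 and 12.04 with mix 2 and 12.86, 12.92, 12.94 and 12.94 with control siRNA. Its 4 values in each group spanned a narrow range, and it fell to 57.4% with mix 1 (adjusted p = 1.86e-09) and 55.9% with mix 2 (adjusted p = 9.36e-10). Between mix 2 and mix 1, VARS1, YARS1 and IARS1 differed by 0.04 (95% interval -0.21 to 0.28), -0.03 (-0.18 to 0.11) and -0.04 (-0.15 to 0.07).

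LARS1 and NARS1 fell under both mixes and further under mix 1, but the LARS1 call with mix 2 rests on the brightest of its 4 probe sets: averaged, they gave -0.02 (adjusted p = 0.865). LARS1 encodes the leucyl enzyme, part of the multisynthetase complex and also known as a leucine sensor upstream of mTORC1. It read 10.69, 10.66, 10.42 and 10.70 with mix 1, 11.12, 11.07, 11.08 and 11.02 with mix 2 and 11.33, 11.27, 11.29 and 11.35 with control siRNA. The mix 2 arrays lay between the mix 1 and the control arrays without overlap, with differences from control of -0.69 (SE 0.065, adjusted p = 2.11e-07) for mix 1 and -0.24 (SE 0.065, adjusted p = 0.00445) for mix 2. NARS1, the asparaginyl enzyme, read 12.02, 12, 12.02 and 12.08 with mix 1, 12.36, 12.20, 12.37 and 12.41 with mix 2 and 12.61, 12.58, 12.61 and 12.66 with control siRNA, with -0.59 (SE 0.056, adjusted p = 2.67e-07) for mix 1 and -0.28 (SE 0.056, adjusted p = 0.000404) for mix 2. The same order of groups held, and mix 2 lay above mix 1 by 0.46 for LARS1 (adjusted p = 3.21e-05) and 0.31 for NARS1 (adjusted p = 0.000315).

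Falls of a smaller size were found in 3 further cytosolic genes under both mixes. The log2 differences of HARS1, the histidyl enzyme, were -0.25 (adjusted p = 0.00586) with mix 1 and -0.42 (adjusted p = 8.87e-05) with mix 2. Those of TARS1, the threonyl enzyme, were -0.31 (adjusted p = 0.000602) and -0.29 (adjusted p = 0.00107), and those of KARS1, the lysyl enzyme, were -0.26 (adjusted p = 0.000253) and -0.20 (adjusted p = 0.00215). SARS1, the seryl enzyme, read 11.11, 11.22, 11.29 and 11.11 with mix 1, 11.30, 11.38, 11.37 and 11.22 with mix 2 and 11.36, 11.46, 11.38 and 11.33 with control siRNA, with mix 2 overlapping control. SARS1 and RARS1, the arginyl enzyme, passed with mix 1, at -0.20 (adjusted p = 0.00944) and -0.21 (adjusted p = 0.00657). With mix 2 they were at -0.07 (adjusted p = 0.369) and -0.13 (adjusted p = 0.0707), which did not pass; their mix 2 against mix 1 differences did not pass either (adjusted p = 0.0775 and 0.29). Without control replicate A, RARS1 passed with mix 2 at -0.16 (adjusted p = 0.0467).

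CARS1, the cysteinyl enzyme, was the 1 cytosolic gene that rose under both mixes. It read 12.33, 12.34, 12.46 and 12.30 with mix 1, 12.36, 12.40, 12.36 and 12.26 with mix 2 and 12.09, 12.08, 12.09 and 12.05 with control siRNA. All 8 knockdown arrays lay above all 4 control arrays, by 0.28 (SE 0.054, adjusted p = 0.000309) with mix 1 and 0.27 (SE 0.054, adjusted p = 0.000439) with mix 2. With the mean of its probe sets the rise with mix 1 was 0.14 and did not pass (adjusted p = 0.123).

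In 4 other cytosolic genes mix 2 lay above mix 1. GARS1, the glycyl enzyme, read 12.63, 12.57, 12.63 and 12.76 with mix 1, 13.14, 13.11, 13.17 and 13.05 with mix 2 and 12.94, 12.97, 13.01 and 12.98 with control siRNA. It fell with mix 1, by 0.33 (adjusted p = 8.9e-05), and rose slightly with mix 2, by 0.14 (adjusted p = 0.0321); the difference of mix 2 from mix 1 was 0.47 (SE 0.055, adjusted p = 4.6e-06). WARS1, the tryptophanyl enzyme and a known interferon-inducible gene, read 10.31, 10.40, 10.49 and 10.30 with mix 1, 10.85, 10.82, 10.71 and 10.64 with mix 2 and 10.58, 10.67, 10.53 and 10.46 with control siRNA. Knockdown and control arrays overlapped for WARS1, at -0.19 (adjusted p = 0.027) with mix 1 and 0.20 (adjusted p = 0.0202) with mix 2, while the mixes did not overlap with each other and differed by 0.38 (SE 0.068, adjusted p = 0.000273). EPRS1 encodes the enzyme for both glutamate and proline. Its levels were 11.47, 11.37, 11.42 and 11.47 with mix 1, 11.76, 11.70, 11.76 and 11.70 with mix 2 and 11.68, 11.65, 11.59 and 11.65 with control siRNA, which gave -0.21 (adjusted p = 0.00167) with mix 1. With mix 2 it was at 0.09 (adjusted p = 0.135), not past the threshold, and between mix 2 and mix 1 at 0.30 (adjusted p = 0.000143). AARS1, the alanyl enzyme, read 10.42, 10.43, 10.59 and 10.41 with mix 1, 10.68, 10.82, 10.78 and 10.49 with mix 2 and 10.50, 10.54, 10.48 and 10.47 with control siRNA. Its difference from control was -0.04 (adjusted p = 0.692) with mix 1 and 0.20 (adjusted p = 0.0264) with mix 2, and mix 2 array D lay within the control range.

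Among the cytosolic genes, the small rises of AARS1, GARS1 and WARS1 with mix 2 were fragile. Of the 4 cytosolic genes called higher with mix 2, 1 stayed called without control replicate D or without mix 2 replicate B, and 2 without mix 2 replicate A or C. AARS1 lost its call when control C, control D, mix 2 B or mix 2 C was left out (adjusted p = 0.0556 to 0.0896). GARS1 lost it when control A, B or D, or mix 2 A, B or C, was left out (adjusted p = 0.0534 to 0.0881). WARS1 lost its mix 2 call when control D, mix 2 A or mix 2 B was left out (adjusted p = 0.0578 to 0.0684), and its mix 1 call when control A, control B, mix 1 A or mix 1 D was left out (0.0593 to 0.0896).

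Among the mitochondrial enzymes the methionyl, asparaginyl, glutamyl and cysteinyl genes fell the furthest. MARS2, the methionyl enzyme, read 6.25, 6, 5.96 and 6.16 with mix 1, 5.71, 5.77, 5.86 and 5.65 with mix 2 and 7.86, 7.78, 7.60 and 7.67 with control siRNA. The knockdown arrays came close to the filter value of 5.46. The log2 difference came to -1.64 (SE 0.079, adjusted p = 1.56e-10) with mix 1 and -1.98 (SE 0.079, adjusted p = 1.68e-11) with mix 2, which left 32.2% and 25.3% of control. NARS2, the asparaginyl enzyme, read 8.41, 8.09, 8.28 and 8.29 with mix 1, 7.88, 7.66, 7.75 and 7.65 with mix 2 and 9.51, 9.73, 9.66 and 9.68 with control siRNA. It was at 38.5% of control with mix 1 (log2 SE 0.078, adjusted p = 8.14e-10) and 26.6% with mix 2 (log2 SE 0.078, adjusted p = 2e-11), and each mix 2 array lay below each mix 1 array.

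EARS2, the glutamyl enzyme of mitochondria, read 7.51, 7.43, 7.5 and 7.38 with mix 1, 7.34, 7.03, 7.15 and 6.68 with mix 2 and 8.44, 8.54, 8.52 and 8.53 with control siRNA. Mix 2 array D was the lowest and the groups did not overlap, with differences of -1.05 (SE 0.1, adjusted p = 4.19e-07) for mix 1 and -1.46 (SE 0.1, adjusted p = 1.03e-08) for mix 2. CARS2, the cysteinyl enzyme, read 8.21, 8.21, 8.43 and 8.19 with mix 1, 8.77, 8.57, 8.76 and 8.40 with mix 2 and 9.54, 9.69, 9.78 and 9.82 with control siRNA. Here mix 1 took the level lower than mix 2, to 36.7% against 47.2% of control (adjusted p = 2.83e-09 and 6.52e-08), although mix 1 array C and mix 2 array D overlapped. The difference of mix 2 from mix 1 was -0.35 for MARS2 (adjusted p = 0.00193), -0.53 for NARS2 (adjusted p = 4.19e-05) and -0.41 for EARS2 (adjusted p = 0.00449). For CARS2 the difference was 0.37 (adjusted p = 0.00367).

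YARS2, the tyrosyl enzyme, read 8.58, 8.61, 8.70 and 8.51 with mix 1, 9.20, 8.97, 9.11 and 8.90 with mix 2 and 9.30, 9.47, 9.39 and 9.40 with control siRNA. As in LARS1, the mix 2 arrays lay between the others without overlap, at -0.79 (adjusted p = 1.53e-07) for mix 1 and -0.35 (adjusted p = 0.000567) for mix 2. AARS2, the alanyl enzyme, read 7.46, 7.30, 7.33 and 7.23 with mix 1, 7.27, 7.04, 7.19 and 6.96 with mix 2 and 7.78, 7.85, 7.78 and 7.68 with control siRNA, which gave -0.44 (adjusted p = 9.96e-05) with mix 1 and -0.66 (adjusted p = 1.71e-06) with mix 2. SARS2, the seryl enzyme, read 7.45, 7.49, 7.13 and 7.39 with mix 1, 7.55, 7.30, 7.54 and 7.17 with mix 2 and 7.96, 7.97, 7.81 and 7.92 with control siRNA. Its falls under the 2 mixes were close in size, at -0.55 (adjusted p = 0.000127) and -0.53 (adjusted p = 0.000184).

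WARS2, the tryptophanyl enzyme of mitochondria, read 7.32, 7.23, 7.82 and 7.83 with mix 1, 7.98, 7.85, 7.97 and 7.56 with mix 2 and 8.04, 8.25, 8.51 and 8.45 with control siRNA. Arrays C and D lay above A and B both with mix 1 and with control siRNA, and this gene had the largest standard error of the 32 members. The actin 3 prime to 5 prime difference parted the same arrays, at 1.88 to 2.24 on A and B and 1.38 to 1.78 on C and D of those groups; its part in the result was not tested. WARS2 fell by 0.76 with mix 1 (log2 SE 0.15, adjusted p = 0.000352) and by 0.47 with mix 2 (log2 SE 0.15, adjusted p = 0.0112). On arrays lettered A and B alone the fall with mix 2 was -0.23 and did not pass (adjusted p = 0.0563).

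LARS2, the leucyl enzyme, read 9.08, 9.06, 9 and 9.11 with mix 1, 9.35, 9.21, 9.33 and 9.08 with mix 2 and 9.47, 9.51, 9.50 and 9.44 with control siRNA. Both mixes lay below control without overlap, by -0.42 (adjusted p = 3.25e-05) with mix 1 and -0.24 (adjusted p = 0.00373) with mix 2. PARS2, the prolyl enzyme, read 6.88, 6.76, 7.08 and 6.85 with mix 1, 6.71, 6.82, 6.74 and 6.31 with mix 2 and 7.16, 7.17, 7.13 and 7.04 with control siRNA. It passed with mix 2 at -0.48 (adjusted p = 0.000574), and was at -0.23 (adjusted p = 0.0529) with mix 1, just short of the threshold; it passed there with a replicate block (adjusted p = 0.0307) and without mix 1 replicate C (0.0199), mix 2 replicate B (0.0468) or mix 2 replicate D (0.00746).

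In 4 mitochondrial genes mix 2 lay above control or near it, and above mix 1. VARS2, the valyl enzyme, read 8.29, 8.35, 8.68 and 8.29 with mix 1, 9.16, 9.15, 9.20 and 8.84 with mix 2 and 8.83, 8.95, 8.88 and 8.93 with control siRNA. It was lower than control with mix 1, at -0.50 (adjusted p = 0.00031), and at 0.19 (adjusted p = 0.0922) with mix 2, where array D alone lay within the control range; without that array the difference was 0.27 and passed (adjusted p = 0.0125), as it did at 0.19 without mix 1 replicate C (adjusted p = 0.0369). Its difference of mix 2 from mix 1, 0.69 (SE 0.095, adjusted p = 2.6e-05), was the highest among the 32 members. IARS2, the isoleucyl enzyme, read 11.62, 11.56, 11.53 and 11.63 with mix 1, 12.15, 12.06, 12.02 and 11.98 with mix 2 and 11.77, 11.81, 11.78 and 11.79 with control siRNA. The control arrays lay between the mixes and no group overlapped another: -0.20 (adjusted p = 0.00342) with mix 1, 0.27 (adjusted p = 0.000404) with mix 2 and 0.47 (adjusted p = 3.36e-06) between mix 2 and mix 1. FARS2, the phenylalanyl enzyme of mitochondria, read 9.06, 9.18, 9.16 and 8.99 with mix 1, 9.43, 9.47, 9.57 and 9.37 with mix 2 and 9.22, 9.29, 9.16 and 9.17 with control siRNA, with -0.11 (adjusted p = 0.13) for mix 1 and 0.25 (adjusted p = 0.00253) for mix 2. RARS2, the arginyl enzyme, was at 0.08 (adjusted p = 0.354) and 0.28 (adjusted p = 0.00215). HARS2, the histidyl enzyme, did not pass in any comparison, at 0.04 (95% interval -0.10 to 0.18) with mix 1 and -0.06 (-0.20 to 0.09) with mix 2.

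Set directly against each other, the mixes differed in 20 of 32 members, 13 higher and 7 lower with mix 2, against 28.7% and 25.0% of all genes tested (53.7% in either direction). No member differed 2-fold between the mixes, against 2.63% of all genes higher and 3.61% lower. Among cytosolic genes 6 were higher and 2 lower with mix 2 (median 0.06), and among mitochondrial genes 7 were higher and 5 lower (median 0.18). Members lower with mix 2 were FARSA, FARSB, MARS2, NARS2, EARS2, AARS2 and PARS2. The last of these was at -0.25 (adjusted p = 0.0499) and did not pass (adjusted p = 0.057 to 0.145) when any 1 control array, mix 1 A, C or D, or mix 2 A or D was left out. AARS2 did not pass without mix 1 replicate A or mix 2 replicate B or D (0.0717 to 0.0847). Among those higher with mix 2, LARS2 did not pass without mix 1 C, mix 2 A or mix 2 C (0.0638 to 0.0888), RARS2 without mix 1 B, mix 2 A, mix 2 B or mix 2 C (0.0544 to 0.0709), and AARS1 without mix 2 replicate B (0.0521). Conversely, HARS1 passed without mix 2 C (-0.20, 0.0383), SARS1 without mix 1 C (0.0316) or mix 2 D (0.0295), and WARS2 without mix 1 D (0.38, 0.0499). The 5 mitochondrial genes called lower with mix 2 became 3 without mix 1 replicate A or mix 2 replicate D.

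Cytosolic and mitochondrial enzymes for the same amino acid differed in the size of their change and in some pairs in its sign. For phenylalanine, the log2 differences with mix 1 were -1.91 and -0.89 for the cytosolic subunits FARSB and FARSA and -0.11 for the mitochondrial FARS2. With mix 2 they were -2.14 and -1.18 for the cytosolic subunits and 0.25 for FARS2. For valine and isoleucine too the cytosolic enzyme fell further, at -1.49 for VARS1 against 0.19 for VARS2 and -0.84 for IARS1 against 0.27 for IARS2 with mix 2. The order was the other way round for cysteine, glutamate and asparagine. With mix 1, CARS1 was at 0.28 and CARS2 at -1.45, EPRS1 at -0.21 and EARS2 at -1.05, and NARS1 at -0.59 and NARS2 at -1.38. For tyrosine both enzymes fell, with YARS1 at -0.93 and YARS2 at -0.79 under mix 1, and at -0.97 and -0.35 under mix 2. For arginine, RARS1 was at -0.21 and RARS2 at 0.08 with mix 1. These are differences of separately fitted genes, and the gap within a pair was not tested.

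**Figure D3:**
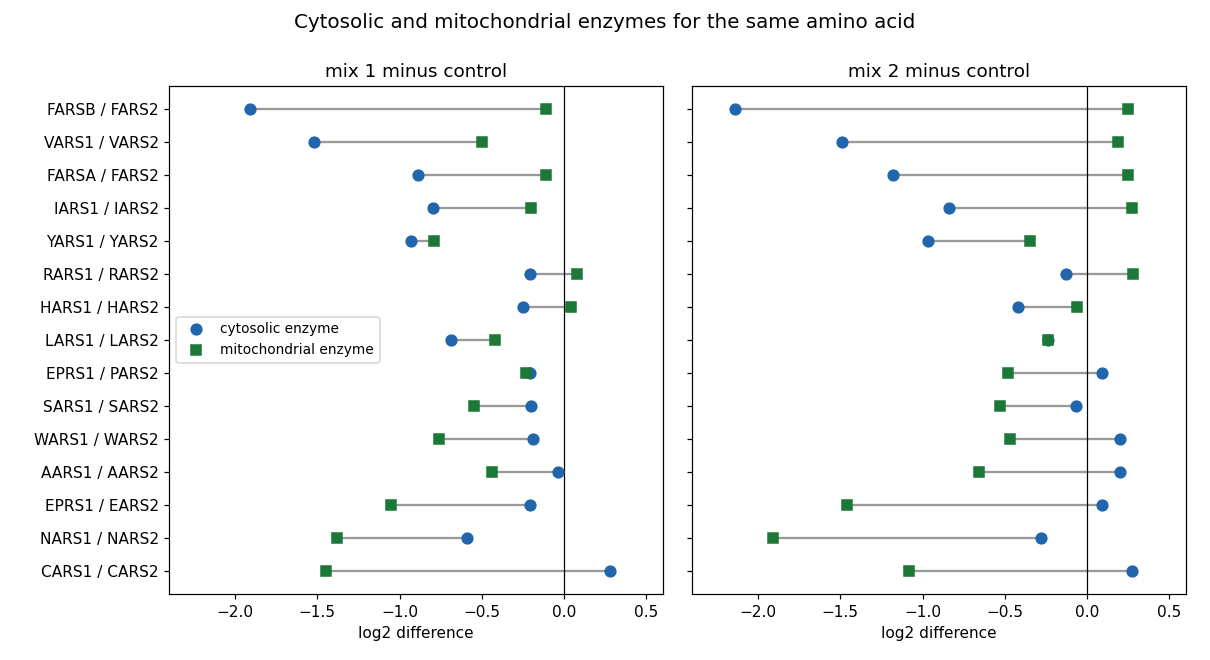
Log2 difference from control for the cytosolic (blue circles) and mitochondrial (green squares) enzyme of each amino acid, joined by a line, with mix 1 on the left and mix 2 on the right; EPRS1 and FARS2 appear in 2 rows each, since EPRS1 serves 2 amino acids and FARS2 stands against both cytosolic subunits. The FARSB and FARS2 pair and the CARS1 and CARS2 pair lie at opposite ends, with the cytosolic enzyme lower in the first and the mitochondrial enzyme lower in the second.

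Probe sets of the same gene did not always give the same size. Above the filter, 18 members had more than 1 probe set, with 25 probe sets beside the brightest ones, of which 23 had the sign of the brightest with mix 1 and 22 with mix 2. The other SARS1 probe set (mean level 8.07, against 11.29 for the brightest) was at -1.71 with mix 1 and -2.25 with mix 2, whereas the brightest was at -0.20 and -0.07. With the mean of both, SARS1 passed with mix 2, at -1.16 (adjusted p = 2.4e-10), and the difference of mix 2 from mix 1 was -0.20 (adjusted p = 0.0121), the reverse of 0.14. The dimmer VARS1 probe set was at -0.18 with mix 1 and -0.24 with mix 2, neither past the threshold (adjusted p = 0.214 and 0.105 over all probe sets), so the large fall of VARS1 rests on 1 probe set. For WARS2 another probe set was at -0.49 with mix 1 and -1.46 with mix 2, which turns the direction between mix 2 and mix 1 to -0.97 (adjusted p = 2.22e-07 over all probe sets). Of the other EARS2 probe sets, one was at -1.10 with mix 1 and -1.22 with mix 2, one at -0.38 and -0.78, and one, near the filter value at a mean of 5.64, at -0.04 and 0.15. The other CARS2 probe set was at -0.42 and -0.47. Other LARS1 probe sets were at 0.10, -0.11 and 0.17 with mix 2, none past the threshold. Averaged, CARS2 did not pass between mix 2 and mix 1, at 0.16 (adjusted p = 0.149). The other WARS1 probe set was at -0.38 with mix 1 and 0.03 with mix 2 (adjusted p = 0.000659 and 0.74 over all probe sets). With the mean of both, WARS1 did not pass with mix 2, at 0.11 (adjusted p = 0.14). For FARSB and FARSA the other probe sets above the filter were at -1.42 and -0.97 with mix 1 and at -1.91 and -1.30 with mix 2. Names ending in _s_at, as for the brightest probe sets of FARSB, VARS1, IARS1, LARS1, YARS1, EPRS1, GARS1 and WARS2, mark probe sets that can bind several transcripts.

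**Figure D4:**
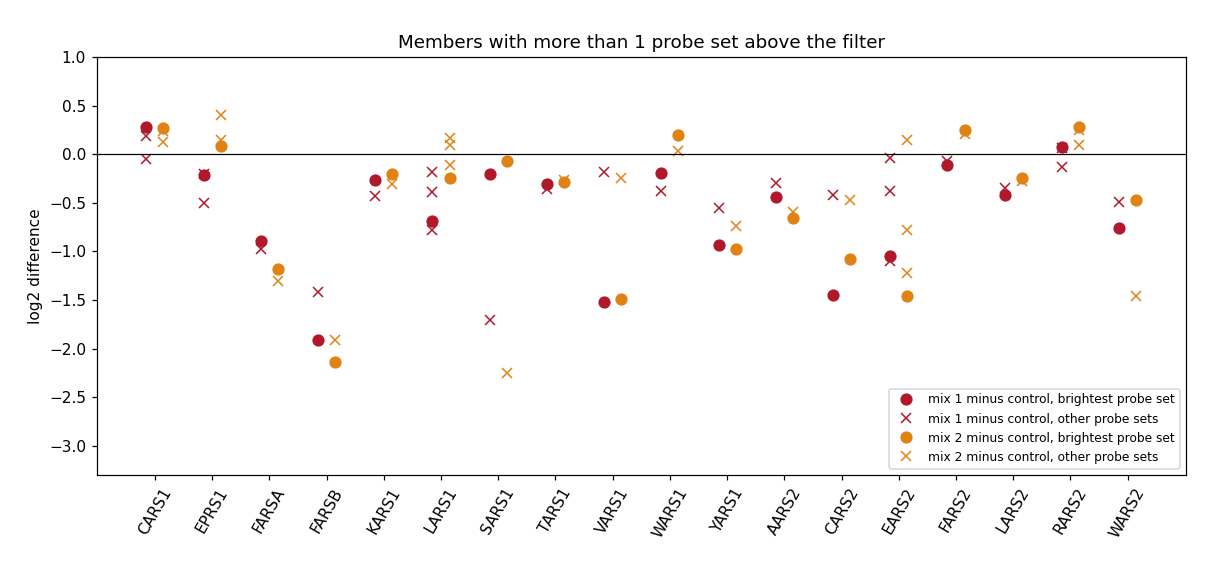
Log2 difference from control of every probe set above the filter, for the 18 synthetase genes with more than 1 such probe set, mix 1 in red and mix 2 in orange, circles for the brightest probe set and crosses for the others. SARS1 shows the widest gap between circle and cross, and EARS2 and VARS1 follow, with EARS2 at -1.46 and 0.15 with mix 2.

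Promoter sequence was at hand for 30 of the 35 genes, as 39 windows of 300 bases from 250 before to 50 after an annotated start (RefSeq, GRCh38.p14); LARS1, VARS1, YARS1, AARS2 and VARS2 had none in the table. The motifs searched, on both strands, were TGATGNAA (the composite site bound by C/EBP and ATF4), CACGTG (the E-box bound by MYC), GGAATG (the site of TEAD factors) and TTCNNNGAA (the site of STAT factors). In the member windows no match overlapped a match of another motif. TGATGNAA was found in 8 of 39 member windows (20.5%), against 3.62% of all 35116 windows, and its 8 genes were 7 of the 16 cytosolic genes with a window and 1 of the 14 mitochondrial ones. The stretches around it are shown because 7 of the 8 genes are cytosolic, 30 bases each on the strand of the gene, with the match in capitals:
AARS1, chr16:70289675-70289704, minus strand: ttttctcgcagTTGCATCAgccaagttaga
CARS1, chr11:3057407-3057436, minus strand: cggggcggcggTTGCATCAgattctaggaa
GARS1, chr7:30594834-30594863, plus strand: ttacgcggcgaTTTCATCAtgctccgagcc
IARS1, chr9:92293692-92293721, minus strand: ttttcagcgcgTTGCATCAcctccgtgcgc
MARS1, chr12:57488053-57488082, plus strand: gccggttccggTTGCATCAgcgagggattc
NARS1, chr18:57621804-57621833, minus strand: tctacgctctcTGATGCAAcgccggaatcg
TARS1, chr5:33440956-33440985, plus strand: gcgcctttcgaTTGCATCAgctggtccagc
YARS2, chr12:32756076-32756105, minus strand: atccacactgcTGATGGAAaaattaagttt

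The match began at base -2 from the annotated start in CARS1, -13 in IARS1, -4 in MARS1, 14 in NARS1 and 2 in TARS1, and farther off in GARS1 (-33), AARS1 (-187) and YARS2 (-197). The 6 measured cytosolic genes with the motif had a median log2 difference of -0.32 with mix 1 and -0.07 with mix 2, within a range of -0.84 to 0.28. The 8 measured cytosolic genes with a window that lacks it were at -0.23 and -0.16, within -2.14 to 0.20.

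CACGTG was found in 4 of the 30 genes, CARS2, EARS2, MARS2 and IARS1, in 12.8% of member windows and 7.26% of all windows. All 4 were called lower under both mixes, against 32.3% of all genes with mix 1 and 31.9% with mix 2. The 3 mitochondrial ones had a median of -1.45 with mix 1 (range -1.64 to -1.05) and -1.46 with mix 2 (-1.98 to -1.08). The 10 measured mitochondrial genes with a window that lacks it were at -0.32 (-1.38 to 0.08) and -0.30 (-1.91 to 0.28), so the ranges overlap. The letters are a description of 300 bases, and binding was not measured. The 250 bases before the start of MARS2, EARS2 and IARS1 are given because these genes fell under both mixes and hold a match there, which begins at base -11 in MARS2, -15 in EARS2 and -186 in IARS1 (matches to any searched motif in capitals). In CARS2 the match spans the start itself, and its sequence is not printed:
MARS2, chr2:197705119-197705368, plus strand: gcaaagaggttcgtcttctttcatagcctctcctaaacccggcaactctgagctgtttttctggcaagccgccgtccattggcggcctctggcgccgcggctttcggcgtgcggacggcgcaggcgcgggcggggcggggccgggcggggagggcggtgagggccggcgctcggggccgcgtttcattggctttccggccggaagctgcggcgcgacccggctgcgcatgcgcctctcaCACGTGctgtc
EARS2, chr16:23557351-23557600, minus strand: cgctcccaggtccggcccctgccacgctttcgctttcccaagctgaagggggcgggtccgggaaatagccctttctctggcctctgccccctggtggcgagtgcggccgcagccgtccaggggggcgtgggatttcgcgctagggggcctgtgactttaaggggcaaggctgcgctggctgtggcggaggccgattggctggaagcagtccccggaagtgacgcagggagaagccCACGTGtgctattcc
IARS1, chr9:92293698-92293947, minus strand: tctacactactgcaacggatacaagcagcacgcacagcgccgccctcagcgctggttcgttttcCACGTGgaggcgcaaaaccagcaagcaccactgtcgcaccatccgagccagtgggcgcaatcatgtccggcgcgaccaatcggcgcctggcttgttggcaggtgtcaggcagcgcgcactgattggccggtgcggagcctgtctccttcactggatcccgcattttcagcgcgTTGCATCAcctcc

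GGAATG was found for 4 genes (CARS1, FARS2, WARS2 and YARS2), in 12.8% of member windows and 14% of all windows. TTCNNNGAA was found for 5 (CARS1, PARS2, TARS1, WARS1 and WARS2), in 17.9% of member windows and 7.66% of all windows. Neither set moved in a single direction from control. CARS1, found in both sets, was called higher under both mixes, and WARS2, also in both, was called lower. FARS2 was at -0.11 with mix 1 and 0.25 with mix 2, and WARS1 at -0.19 and 0.20.

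Synthetases fall into 2 classes by the fold of the catalytic domain. Of 16 measured class I genes, 14 were lower and 1 higher with mix 1 (median -0.73), and 10 were lower and 4 higher with mix 2 (median -0.29). Among all genes, 32.3% were lower and 34.8% higher with mix 1, and 31.9% and 36.7% with mix 2. Of 15 class II genes, 11 were lower and none higher with mix 1 (median -0.31), and 10 were lower and 3 higher with mix 2 (median -0.29). The 5 measured enzymes of the multisynthetase complex (EPRS1, IARS1, KARS1, LARS1 and RARS1) had a median of -0.26 with mix 1 and -0.20 with mix 2, and the 12 other cytosolic genes were at -0.32 and -0.28. AIMP1, a scaffold protein of that complex, read 9.92, 9.79, 9.88 and 9.96 with mix 1, 10.45, 10.42, 10.40 and 10.18 with mix 2 and 10.46, 10.53, 10.53 and 10.62 with control siRNA. It was lower under both mixes, at -0.65 (adjusted p = 7.6e-07) with mix 1 and -0.17 (adjusted p = 0.0361) with mix 2. The other scaffolds AIMP2 and EEF1E1 were not analysed here, for want of a probe set naming them alone.

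Most measured genes that work next to the synthetases were lower too, against 32.3% of all genes with mix 1 and 31.9% with mix 2. Of 15 measured partners of mitochondrial translation, 11 were lower and 3 higher with mix 1 (median -0.46), and 10 were lower and 2 higher with mix 2 (median -0.32). MRRF, the ribosome recycling factor, was at -1.03 and -1.04, and the elongation factor GFM1 at -1.18 and -0.48. QRSL1, a subunit of the enzyme that makes glutaminyl tRNA in mitochondria, was at -0.82 and -0.78, and the tRNA-modifying enzyme TRMU at -0.46 and -0.77. The initiation factor MTIF3 rose, by 0.69 with mix 1 and 1.04 with mix 2. Of 22 measured genes of tRNA processing, export and editing, 18 were lower and 1 higher with mix 1 (median -0.60), and 15 were lower and 1 higher with mix 2 (median -0.53). The ribonuclease P subunits POP1 (-1.30 and -1.11), RPP40 (-1.27 and -0.91) and RPP25 (-0.76 and -1.10) fell. So did TRNT1, which adds the CCA end to tRNAs (-0.77 and -1.40), while TSEN34, a subunit of the tRNA splicing enzyme, rose (0.22 and 0.16).

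The list of ATF4 target genes held more genes called lower than higher under both mixes. Of 29 measured genes, 17 were lower and 9 higher with mix 1 (median -0.36), against 32.3% and 34.8% of all genes. With mix 2, 19 were lower and 5 higher (median -0.51), against 31.9% and 36.7%. The share of the list called higher was 31.0% with mix 1 and 17.2% with mix 2. ATF4 itself was at -0.12 (adjusted p = 0.0866) with mix 1 and -0.60 (adjusted p = 1.94e-07) with mix 2. Lower under both mixes were the folate enzymes MTHFD2 (-1.82 and -1.50) and SHMT2 (-1.86 and -1.33), the translation repressor EIF4EBP1 (-1.34 and -1.34) and the cationic amino acid transporter SLC7A1 (-0.64 and -1.76). Higher under both were the mTORC1 inhibitor DDIT4 (1.72 and 1.45), the lipoprotein receptor VLDLR (1.63 and 0.26), the serine synthesis enzyme PSPH (0.77 and 0.55) and the leucine-sensing protein SESN2 (0.36 and 0.65). Between mix 2 and mix 1, 15 of the 29 genes were lower and 9 higher with mix 2 (median -0.22), against 25.0% and 28.7% of all genes. The cytosolic synthetases had a median of 0.06 in that comparison. The part of ATF4 in the synthetase levels was not tested.

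Genes of the interferon gamma response, read here beside the interferon-inducible WARS1, rose in 12 of 15 measured cases with mix 1 (2 lower, median 0.89) and in 10 with mix 2 (3 lower, median 0.48). Of all genes, 34.8% were called higher with mix 1 and 36.7% with mix 2. Among the genes called higher, CIITA (0.51 with mix 1) had a control mean of 5.41, below the filter value of 5.46. GBP2 rose by 3.24 and 3.68, NLRC5 by 2.01 and 1.53, ICAM1 by 1.69 and 1.59 and PSMB9 by 1.57 and 1.17, while TAP2 (-0.63 and -2.17) and SOCS1 (-0.65 and -0.86) fell. GBP1 was called higher with mix 1, at 0.66, and lower with mix 2, at -1. WARS1 was at -0.19 and 0.20. Of 8 leukocyte markers with a probe set, 5 passed the filter, and 4 of them rose under each mix, with medians over the 5 of 1.12 with mix 1 and 1.31 with mix 2. Of these, LYZ and CD14 had control means of 4.96 and 5.15, below the filter value of 5.46, and passed only through their knockdown arrays. Hence the count and the medians depend in part on the filter. The largest rise was in LYZ, lysozyme, at 4.19 and 4.22. The summed linear signal of the 8 ran from 1135 to 1312 with mix 1, 1352 to 1423 with mix 2 and 335.7 to 359.7 with control siRNA, while PTPRC, NKG7 and MS4A1 lay below the filter value in every group. Of 6 endothelial markers 3 were tested, and PECAM1 rose (2.08 and 1.34), while VWF and CLDN5 did not pass and CDH5, KDR and TEK lay below the filter value. Of 6 fibroblast markers 2 were tested and both rose, COL1A1 (2.3 and 1.48) and PDGFRB (0.66 and 0.88), while COL1A2, COL3A1, DCN and LUM did not pass the filter. Untested and at low levels, LUM was at 1.07 and 2.22, COL3A1 at 0.27 and 1.06, COL1A2 at -0.30 and 0.03 and DCN at -0.08 and 0.07. The summed linear signal of the endothelial list ran from 544.4 to 630.4 with mix 1, 412.8 to 452.3 with mix 2 and 256.9 to 299.1 with control siRNA. That of the fibroblast list ran from 758.3 to 1002 with mix 1, 612.2 to 691.3 with mix 2 and 259.3 to 327.9 with control siRNA. All these sums are weighted to the brightest probe sets. In the knockdown groups those were LYZ and HLA-DRA for leukocytes, PECAM1 for the endothelial list and COL1A1 for the fibroblast list. The sums therefore do not show a rise of whole lists. The part of these markers, and of the luminal ones, in the synthetase differences was not tested.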

How the data were processed

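The data are 12 arrays, 4 per group, in 1 table of 54675 probe sets. The authors deposited log2 expression values; the submitters' processing notes name RMA and nothing more. RMA usually gives all arrays 1 distribution, so a shift of all genes would not be visible. GEO's platform annotation gave 41097 probe sets exactly 1 gene symbol, of which 41043 were updated through gene IDs with RefSeq (GRCh38.p14, for names only). Of these, 41091 that are no control were used; 24650 had a mean above the 40th percentile (5.46 log2), and the brightest stood for each of 13225 genes.

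Differences were tested with limma 3.58.1 in R 4.3.3: a model of the 3 group means fitted to the 12 arrays together (9 residual degrees of freedom), default eBayes, two-sided, Benjamini-Hochberg over all genes, threshold 0.05. The labels call the replicates biological and do not say how far they are separate cultures. The p-values therefore weigh group differences against the spread between these samples only. The number of arrays limits the precision. The code was tested on simulated data.

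The members, lists, rule for named genes and tests were chosen with earlier results of these data known; lists are described by counts and medians, without a test. Every member is reported. Values on every array are given for members past the threshold with groups that do not overlap and a log2 difference of at least 0.5 under either mix, and for their partners in the other compartment. Of other lists, up to 4 genes per direction that passed under both mixes are named. The classes of synthetase, the complex and the 30-base stretches were added after the values were seen. No protein sequence was used here.

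Whether replicate letters pair the arrays was checked by the correlation of their deviations from the group means. Same-letter correlations were 0.37, 0.251, 0.409 and 0.34 for A to D between mix 1 and control, 0.119, 0.0338, 0.0481 and 0.212 between mix 2 and control, and 0.273, -0.0853, 0.202 and 0.191 between mix 2 and mix 1. Only mix 1 against control is above 0.1 for every letter, though there mix 1 array B correlated best with control array A. The labels do not state a pairing. The main tests have no term for the letter in any comparison, and a replicate block was fitted as an alternative.

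Alternatives were no filter, a filter at the 60th percentile (6.85 log2), averaged probe sets per gene, no shared probe sets, centred arrays, only the 2 groups compared, a replicate block, trend and robust eBayes, array weights and leaving out each array; 3 more were chosen after seeing the data.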

Additional observations from a re-analysis of the deposited data

Results flagged for a closer look

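In 7 of 96 groups of 4 arrays, 1 array lay far from the other 3 of its group by Dixon's ratio; chance flags about 1 in 20 groups. Of the 7 values, 4 came from mix 1 replicate C: AARS1 (10.59, next value 10.43), LARS1 (10.42, next 10.66), CARS2 (8.43, next 8.21) and VARS2 (8.68, next 8.35). The other 3 came from mix 2 replicate D: HARS1 (10.31, next 10.57), RARS2 (9.85, next 10.06) and VARS2 (8.84, next 9.15). Mix 1 replicate C also had the lowest YAP1 (7.67) and WWTR1 (8.78) of its group.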

How the results depend on the processing

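With probe sets averaged per gene, no cytosolic gene (0) was higher with mix 1, the cytosolic median was -0.34 with mix 1 and -0.28 with mix 2, and the mitochondrial median of mix 2 against mix 1 was 0.03. Without shared probe sets 11 cytosolic genes were left. FARSB, VARS1, IARS1 and LARS1 were not among them, so their falls could not be checked in this setting. Of the 11, 9 were lower with mix 1 (median -0.25) and 6 with mix 2 (median -0.20). Between mix 2 and mix 1, 3 of them were higher and 1 lower with mix 2, and the mitochondrial median was 0.03. These probe set choices turned SARS1 between mix 2 and mix 1 to -0.20 (averaged) and WARS2 to -0.34 (averaged) and -0.97 (without shared probe sets). Centred arrays gave a cytosolic median of -0.34 with mix 1. With only the 2 groups compared, 3 mitochondrial genes were lower with mix 2 than with mix 1. Array weights gave 3 there too, with cytosolic medians of -0.28 with mix 1 and 0.11 for mix 2 against mix 1, and a mitochondrial median of -0.35 with mix 2. With mix 1 C and mix 2 D both left out, the cytosolic medians were -0.28 and 0.14 and the mitochondrial count 3 in the same comparisons.

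On arrays A and B alone, the cytosolic median was -0.27 with mix 1 and -0.20 with mix 2, the mitochondrial median -0.30 with mix 2, and 1 cytosolic and 2 mitochondrial genes were lower with mix 2 than with mix 1. On arrays C and D alone, 9 cytosolic genes were lower with mix 1 and the mitochondrial median was -0.45. There 0 cytosolic genes (limma) and 1 mitochondrial gene were higher with mix 2. Between mix 2 and mix 1, 4670 genes in all passed, 3 cytosolic genes were higher and 1 lower, and 4 mitochondrial genes were higher and 2 lower. These subsets hold fewer arrays. The cause of the other shifts was not tested.

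Leaving out 1 array at a time, with mix 1 the cytosolic counts ran from 14 to 15 lower and stayed at 1 higher (median -0.32 to -0.28), and the mitochondrial counts from 11 to 12 lower and at 0 higher (median -0.52 to -0.46). With mix 2 they ran from 10 to 11 lower and 1 to 4 higher (median -0.25 to -0.22), and 10 lower and 3 to 4 higher (median -0.51 to -0.37). For mix 2 against mix 1 they ran from 2 to 3 lower and 5 to 7 higher (median 0.05 to 0.11), and 3 to 5 lower and 5 to 8 higher (median 0.14 to 0.23). All genes called ran from 8543 to 9111, 8759 to 9187 and 6669 to 7224.

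The fit with a replicate block called 9194, 9380 and 7570 genes in the 3 comparisons, 15 cytosolic and 12 mitochondrial genes lower with mix 1, and 10 and 10 lower with mix 2. Beside PARS2 with mix 1, it changed the call of HARS1 (adjusted p = 0.0422) and SARS1 (0.037) between mix 2 and mix 1, and no other call of a member.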
